A study of Mus musculus with 4 samples.

Results

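The genes described here encode the machinery that carries proteins between the endoplasmic reticulum (ER) and the Golgi apparatus. They were chosen by symbol: the coat proteins and GTPases of COPII and COPI vesicles, the cargo and retrieval receptors of the early secretory pathway, the Sec22 family, and the golgins, stacking proteins and TRAPP subunits that receive the vesicles. The names matched 75 symbols, of which 72 had a mean of at least 1 FPKM (fragments per kilobase of transcript, scaled to the fragments of the library) over the 4 libraries and a measured value in each, among 11953 symbols that did. The other 3 were Sec31b, at 0.591 FPKM in refed KR, 0.467 in refed WT, 0.550 in fasted KR and 0.618 in fasted WT islets, Lman1l, with no more than 0.0250 FPKM in any library, and Tmed11, which was listed at 0 in each.

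Newly made secretory proteins leave the ER at exit sites in vesicles coated with COPII. The GTPase SAR1, loaded by its exchange factor PREB, recruits the inner coat of SEC23 and SEC24, which binds cargo, and then the outer cage of SEC13 and SEC31. COPI, recruited by ARF GTPases, returns escaped ER proteins and empty receptors, and p24 (TMED), lectin and KDEL receptors sort what each vesicle holds. Tethers of the golgin and TRAPP classes catch the vesicles at the Golgi. In the pancreatic beta cell, the main passenger of this route is proinsulin, which is folded in the ER and packed into granules after the Golgi.

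RNA was sequenced from isolated pancreatic islets of C57BL/6 mice in 4 groups with 1 library each: refed KR, refed WT, fasted KR and fasted WT. KR mice carry a mutant transcription factor FoxO1, a knock-in allele with arginine in place of lysines that can be acetylated, as the study is known to have used, and WT mice are wild type. The refed mice had 6 h of food after a fast and the fasted mice had none. That fast is given as 48 h in the titles and as 24 h in the extraction protocol, and the labels do not settle which holds. Islets of 3 mice were combined per genotype, so each library is a pool and no group has a replicate. The p-values therefore measure no spread between mice or between pools of a group. Their error is the departure of these 4 pools from additive terms of feeding and genotype, moderated over all genes. Foxo1 itself had 13.8 FPKM in refed KR, 18.8 in refed WT, 14.1 in fasted KR and 17.4 in fasted WT islets (KR minus WT -0.35, adjusted p = 0.0667), which checks nothing about the genotype labels because a knock-in need not alter the transcript.

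The deposited bounds imply 11.075 M fragments in refed KR, 18.097 M in refed WT, 25.711 M in fasted KR and 26.407 M in fasted WT, so both refed libraries were the shallower ones. The least covered member still had 79, 165, 240 and 270 implied fragments in the same order. The libraries carried islet transcripts: the 9 measured beta-cell markers summed to 81118 FPKM in refed KR, 57815 in refed WT, 55504 in fasted KR and 40795 in fasted WT, without Ins2, which was not measured in fasted KR. The 18 measured acinar markers summed to between 67.4 and 88.5 FPKM, 11 of them were under 1 FPKM in every library, and Ptf1a, the acinar master regulator, was at 0 in each library. Stellate markers summed to 23.5 and 19.8 FPKM in refed KR and WT, against 35.6 and 35.5 in fasted KR and WT, and endothelial markers to 19.0 and 21.6, against 23.6 and 32.5. In whole islets, fewer cells of a type and less RNA per cell cannot be told apart.

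The members were expressed in every library, at 2.87 to 547 FPKM. Summed over the 72, the level was 7301 FPKM in refed KR, 7588 in refed WT, 6422 in fasted KR and 6510 in fasted WT. The highest single level belonged to Tmed3, a p24 cargo receptor, with 488, 547, 423 and 469.7 FPKM in the same order. Arf1, the GTPase that recruits COPI, followed with 403, 432, 373 and 396 FPKM, and then Cope, the epsilon subunit of COPI, with 411, 416, 314 and 316 FPKM. The next p24 receptors were Tmed2, at 303, 322, 305 and 315 FPKM, and Tmed9, at 244, 259, 203 and 206 FPKM. Among COPII genes, Sec13 had the highest mean level, among tethers Trappc2l, a subunit of the TRAPP core, with 188, 202, 175 and 183 FPKM, and in the Sec22 family Sec22b, the SNARE of ER to Golgi fusion, with 121, 118, 98.8 and 99.5 FPKM. These are levels per length of transcript, and a trend with transcript length, given below, limits comparison between genes.

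Promoter sequences are shown for members called with refeeding whose window holds the letters TGACGTGG. These letters are the core of the element bound by XBP1 and ATF6, transcription factors of the ER stress response known to act on secretory genes. RefSeq promoters (build GRCm38.p6, 250 bases before to 50 after the start) were found for 60 of the 72 members. On either strand, TGACGTGG lay in 7 of the 60 (11.7%), namely Arf1, Copb1, Copb2, Kdelr3, Sec16b, Sec23a and Sec24d, against 1.06% of the 9527 tested symbols with a promoter and 0.714% of all 27025. Below, capitals mark the match, which reads CCACGTCA where it lies on the other strand, and each sequence is written 5′ to 3′ along the strand of its gene. Copb1 is at chr7:114254631-114254930 (minus strand), Copb2 at chr9:98563481-98563780 (plus), Kdelr3 at chr15:79516158-79516457 (plus), Sec23a at chr12:59011968-59012267 (minus) and Sec24d at chr3:123267246-123267545 (plus). The first 4 belong to genes that rose with refeeding and Sec24d to one that fell. The windows of Arf1 and Sec16b, which also hold a match but were not called with refeeding, are not printed. Sec13, at chr6:113740632-113740931 (minus), is added as the member with the largest fitted change, and its window holds no match.
Copb1: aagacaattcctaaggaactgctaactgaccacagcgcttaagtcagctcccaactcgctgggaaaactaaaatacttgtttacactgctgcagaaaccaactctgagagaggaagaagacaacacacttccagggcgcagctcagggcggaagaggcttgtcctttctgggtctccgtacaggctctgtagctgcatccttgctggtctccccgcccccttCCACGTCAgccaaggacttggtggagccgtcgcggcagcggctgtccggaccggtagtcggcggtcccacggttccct
Copb2: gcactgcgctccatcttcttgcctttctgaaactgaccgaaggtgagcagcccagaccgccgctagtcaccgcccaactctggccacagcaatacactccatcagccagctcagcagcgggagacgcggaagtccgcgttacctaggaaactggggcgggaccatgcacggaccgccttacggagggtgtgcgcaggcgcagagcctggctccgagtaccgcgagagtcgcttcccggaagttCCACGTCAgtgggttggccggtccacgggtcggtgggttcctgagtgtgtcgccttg
Kdelr3: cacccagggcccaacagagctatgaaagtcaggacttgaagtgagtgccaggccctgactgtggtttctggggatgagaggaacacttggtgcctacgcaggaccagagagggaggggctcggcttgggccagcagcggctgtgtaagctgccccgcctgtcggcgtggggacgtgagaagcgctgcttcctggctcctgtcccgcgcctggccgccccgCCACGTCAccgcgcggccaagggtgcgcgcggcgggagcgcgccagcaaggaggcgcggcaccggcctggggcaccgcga
Sec23a: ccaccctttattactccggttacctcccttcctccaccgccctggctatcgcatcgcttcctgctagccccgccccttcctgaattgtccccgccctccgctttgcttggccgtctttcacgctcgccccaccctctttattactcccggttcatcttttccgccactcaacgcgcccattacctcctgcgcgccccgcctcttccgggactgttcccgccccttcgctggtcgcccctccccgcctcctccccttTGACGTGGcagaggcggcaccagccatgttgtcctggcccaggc
Sec24d: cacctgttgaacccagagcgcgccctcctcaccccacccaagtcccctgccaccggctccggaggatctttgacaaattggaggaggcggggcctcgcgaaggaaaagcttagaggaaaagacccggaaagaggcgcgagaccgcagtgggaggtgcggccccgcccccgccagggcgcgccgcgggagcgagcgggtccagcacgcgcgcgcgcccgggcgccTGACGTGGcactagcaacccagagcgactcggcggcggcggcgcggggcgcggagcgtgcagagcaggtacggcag
Sec13: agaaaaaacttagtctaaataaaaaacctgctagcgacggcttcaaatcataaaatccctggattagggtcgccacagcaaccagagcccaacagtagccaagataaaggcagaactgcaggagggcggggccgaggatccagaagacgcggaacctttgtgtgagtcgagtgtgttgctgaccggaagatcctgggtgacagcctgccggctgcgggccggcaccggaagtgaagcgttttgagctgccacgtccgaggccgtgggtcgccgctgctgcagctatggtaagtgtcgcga

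The match began 28 bases before the start in Copb1, 7 before it in Copb2, 30 before it in Kdelr3 and 26 before it in Sec24d, and at base 7 after it in Sec23a. It was present in 4 of 32 promoters of members that rose with refeeding, 1 of 12 that fell and 2 of 16 that were not called. The full ER stress response element, which begins with CCAAT and whose last letters, CCACG, also begin the reverse complement of TGACGTGG, was in 0 of the 60 members and in 0.178% of the tested symbols. The cyclic AMP element TGACGTCA, which shares its first 6 letters with TGACGTGG, was in 1 member, Cope, and in 3.85% of the tested symbols, and TGATGCAA, the element of CHOP and ATF4, in 0 members and 0.724% of the tested symbols. CCAAT was in 45.0% of members and 43.0% of tested symbols, and the GC box GGGCGG in 45 of the 60 members and 70.0% of tested symbols. A match describes letters in this window and is not evidence that a factor was bound.

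Comparing refed with fasted islets asks how the transport machinery follows food. The 8 COPI subunits that the name rule matched rose, Copz2 only just, while the delta subunit Arcn1, outside the rule, was not called. COPII split, with its GTPases, both SEC23 genes and Sec13 higher, and its exchange factor, its scaffold Sec16a and 3 of 4 SEC24 genes lower. Among receptors, Kdelr3 nearly doubled while Kdelr1 fell, and among tethers Trappc1 rose while Golga4 and Gorasp2 fell. In the additive limma model on log2(FPKM + 1), 36 of the 72 members rose, 16 fell and 20 did not pass an adjusted p of 0.05. Over all tested symbols 27.7% rose and 29.2% fell, 56.9% in all, against 72.2% of the members. The median fitted change was 0.16 on the log2 scale for the members and -0.01 for all tested symbols. The fit leaves 1 residual degree of freedom and borrows 7.58 from all genes, and it assumes 1 genotype difference for both feeding states. More of the well-expressed genes were called: with a mean of at least 5 FPKM required, 64.7% of 9203 symbols passed, against 73.2% of 71 members.

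Feeding groups did not overlap in 62 of the 72 members (86.1%), against 75.7% of all tested symbols. The test favours such genes, so this separation, where given for called genes below, adds no support to their calls. Testing every symbol without a filter on low values left 0 members and 0 other symbols called. An unadjusted p under 0.05 was then found for 46 members (63.9%) and 26.9% of all symbols, and in the filtered fit for 54 of the 72 members and 62.3% of the tested symbols. In a model of feeding state alone, 31 members were called without the refed KR library, against 34.1% of all tested symbols, and 29 without refed WT, against 32.6%. Without fasted KR 24 were called, against 30.0%, and without fasted WT 21, against 24.5%. Each of these fits has 1 library in one feeding state, assumed to vary like the KR and WT pair of the other, so they are a weak check. In all 4 fits 19 members (26.4%) and 20.9% of all tested symbols were called, and of the 19 members 14 rose (Copa, Copb1, Copb2, Cope, Copg, Copz1, Ergic2, Kdelr3, Sar1a, Sar1b, Sec13, Sec22a, Sec23a and Trappc1) and 5 fell (Golga4, Preb, Sec22c, Sec24b and Trappc10).

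**Figure D1:**
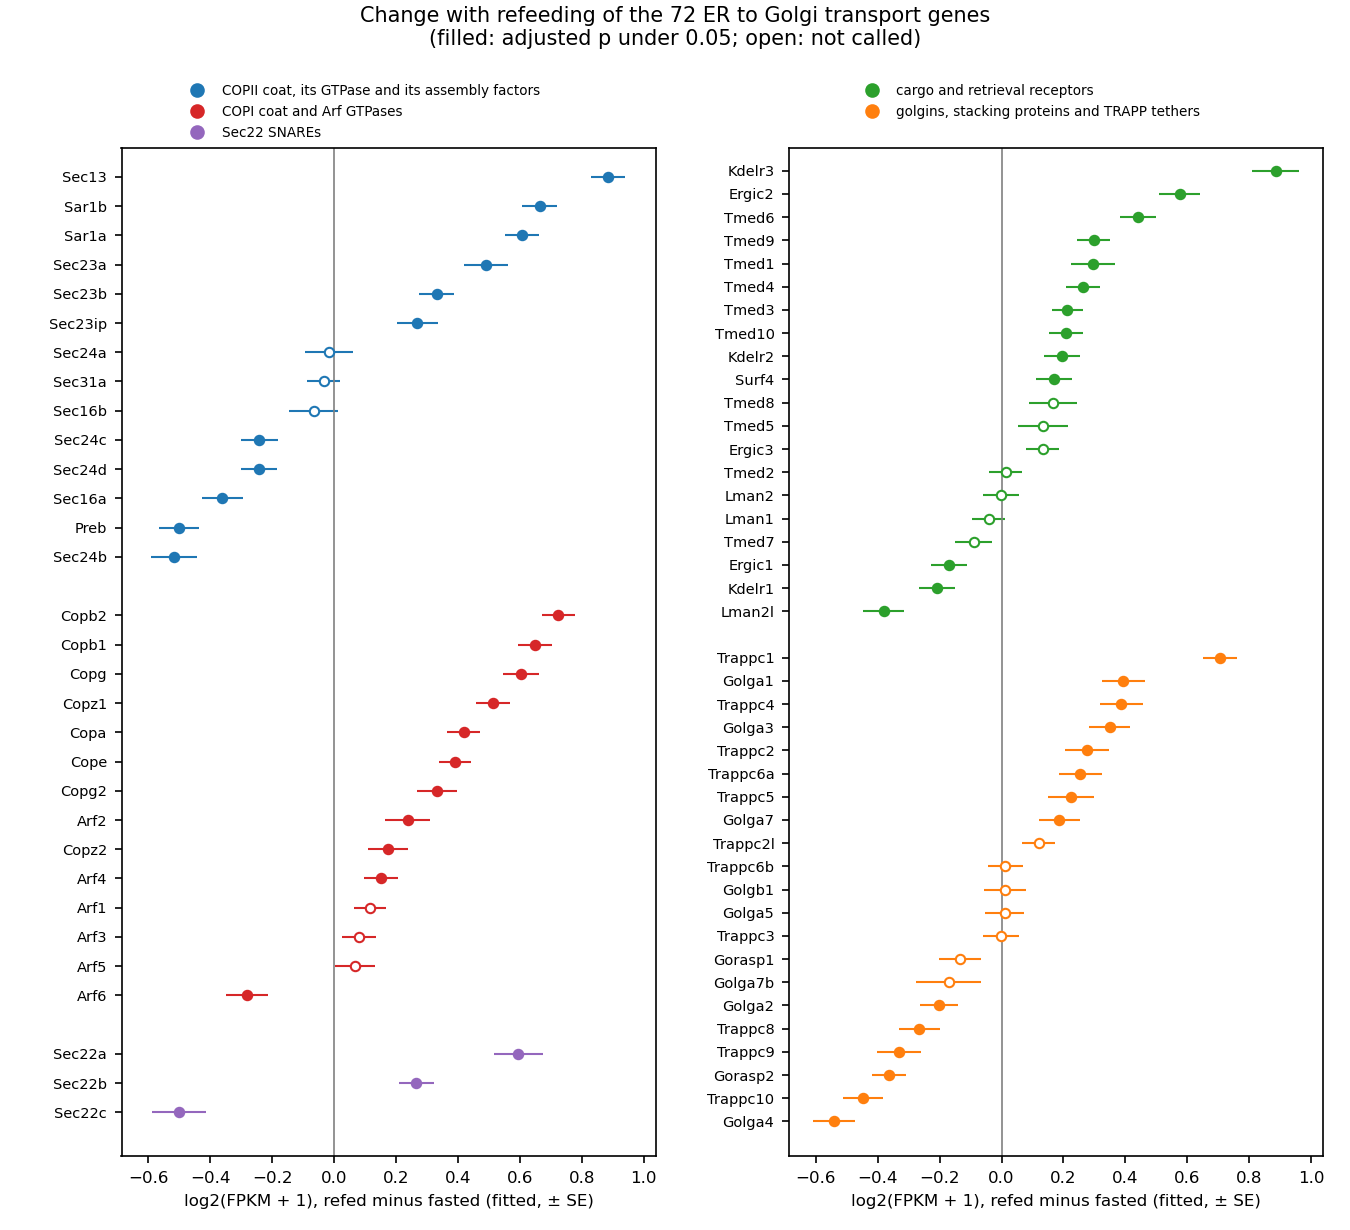
Fitted difference in log2(FPKM + 1) between refed and fasted islets for the 72 members, by role, as points with the moderated standard error of the 4-library model; filled points passed an adjusted p of 0.05. The 8 matched COPI subunits lie right of 0, while COPII runs from -0.52 for Sec24b to 0.89 for Sec13.

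COPII comprised 14 members, of which 6 rose (42.9%), 5 fell (35.7%) and 3 were not called, with a median change of -0.02. Over all tested symbols 27.7% rose and 29.2% fell. Sec13, at chr6:113678045-113690675 in mm9, encodes an outer-cage protein that also serves in the nuclear pore. Its level was 202 and 202 FPKM in refed KR and WT, against 111 and 107 FPKM in fasted KR and WT. Both refed libraries were well above both fasted ones. The fitted change of 0.89 ± 0.05 (SE, 4 libraries, adjusted p = 9.01e-06) was the largest among members, just ahead of Kdelr3 at 0.89 ± 0.07. By mean FPKM, Kdelr3 rose more, 1.94-fold against 1.86-fold for Sec13. Sec31a, the cage partner of Sec13, had 125 and 125 FPKM in refed KR and WT, against 128 and 128 FPKM in fasted KR and WT. It did not pass (-0.03 ± 0.05, adjusted p = 0.616). Sec13 thus stood at 1.62 and 1.62 times the FPKM of Sec31a in refed KR and WT, and at 0.866 and 0.836 times in fasted KR and WT.

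Both SAR1 GTPases, which start coat assembly, rose. Sar1b had 129.9 and 127 FPKM in refed KR and WT, against 84.2 and 77.6 FPKM in fasted KR and WT (0.66 ± 0.06, adjusted p = 4.07e-05). Sar1a had 165 and 159.6 FPKM in refed KR and WT, against 107 and 106 FPKM in fasted KR and WT (0.61 ± 0.05, adjusted p = 4.87e-05). Refed libraries lay above fasted ones for each, and Sar1a kept 55.6% to 57.7% of the summed SAR1 level in the 4 libraries. Preb, which loads SAR1 with GTP, moved the other way, with 28.1 and 28.7 FPKM in refed KR and WT, against 41.1 and 40.1 FPKM in fasted KR and WT (-0.50 ± 0.06, adjusted p = 0.000256). The interval deposited for Preb overlaps that of Abhd1, whose mean level was 0.815 FPKM. In FPKM, Sar1a was 5.88 and 5.56 times Preb in refed KR and WT, and 2.59 and 2.64 times in fasted KR and WT.

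The inner coat divided by subunit. Sec23a had 17.9 and 17.6 FPKM in refed KR and WT, against 12.2 and 12.5 FPKM in fasted KR and WT (0.49 ± 0.07, adjusted p = 0.000518). The more abundant Sec23b, which held 86.4% to 88.5% of the SEC23 level, had 114 and 115 FPKM in refed KR and WT, against 93.7 and 88.5 FPKM in fasted KR and WT (0.33 ± 0.06, adjusted p = 0.00142). Sec23ip, which binds SEC23 at exit sites, rose by 0.27 ± 0.07 (adjusted p = 0.00822). None of the 4 SEC24 genes, whose products choose cargo, rose, and 3 fell, where 27.7% of all tested symbols rose and 29.2% fell. Sec24b had 13.6 and 12.5 FPKM in refed KR and WT, against 18.8 and 19.5 FPKM in fasted KR and WT (-0.52 ± 0.07, adjusted p = 0.000518). Sec24d, the most abundant SEC24 gene, had 54.6 and 54.4 FPKM in refed KR and WT, against 65.6 and 63.6 FPKM in fasted KR and WT (-0.24 ± 0.06, adjusted p = 0.00761). Sec24c also fell by 0.24 ± 0.06 (adjusted p = 0.00831), and Sec24a, at 8.91 to 9.38 FPKM, was not called (-0.02 ± 0.08). The summed SEC24 level was 120.8 and 120.4 FPKM in refed KR and WT, against 145.2 and 145.0 FPKM in fasted KR and WT. In shares of that sum the 4 genes kept their order in every library, with Sec24d at 43.9% to 45.2%.

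Sec16a organises ER exit sites. It had 25.95 and 24.7 FPKM in refed KR and WT, against 32.8 and 32.7 FPKM in fasted KR and WT (-0.36 ± 0.06, adjusted p = 0.00161). Its relative Sec16b was at 10.98 to 12.3 FPKM, with overlapping groups, and was not called (-0.07 ± 0.08, adjusted p = 0.503).

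COPI and the ARF GTPases gave 14 members, of which 10 rose (71.4%), 1 fell (7.14%) and 3 were not called, with a median of 0.29. The shares over all tested symbols were 27.7% and 29.2%. The median of the 8 coat subunits alone was 0.47. Copb2, the beta-prime subunit that binds retrieval signals, had 243 and 245 FPKM in refed KR and WT, against 149 and 145 FPKM in fasted KR and WT (0.72 ± 0.05, adjusted p = 2.11e-05). Copb1, the beta subunit, had 152 and 159 FPKM in refed KR and WT, against 98.4 and 99.4 FPKM in fasted KR and WT (0.65 ± 0.06, adjusted p = 3.74e-05). Copg, the main gamma subunit, had 176 and 177 FPKM in refed KR and WT, against 120.0 and 111 FPKM in fasted KR and WT (0.60 ± 0.06, adjusted p = 6.36e-05). For each of these genes both refed libraries lay above both fasted ones. Copz1, a zeta subunit, had 171 and 174 FPKM in refed KR and WT, against 121 and 120.4 FPKM in fasted KR and WT (0.51 ± 0.05, adjusted p = 0.000103). Copa, the alpha subunit, had 245 and 246 FPKM in refed KR and WT, against 187 and 181 FPKM in fasted KR and WT (0.42 ± 0.05, adjusted p = 0.000265). The remaining subunits rose by 0.39 (Cope), 0.33 (Copg2) and 0.17 (Copz2, adjusted p = 0.0467). The delta subunit is encoded by Arcn1, a symbol the name rule does not reach, and it was not called, with 151 and 157 FPKM in refed KR and WT, against 145 and 145 FPKM in fasted KR and WT (0.09 ± 0.05, adjusted p = 0.191).

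The paralogous pairs of the coat kept their order. Copg held 82.5% and 81.2% of the gamma level in refed KR and WT, against 79.8% and 78.1% in fasted KR and WT, and Copz1 held 75.1% and 77.4% of the zeta level, against 71.8% and 71.8%. Of the ARF GTPases, Arf2 (0.24 ± 0.07, adjusted p = 0.0219) and Arf4 (0.15 ± 0.05, adjusted p = 0.0407) rose. Arf6, which works at the plasma membrane, fell, with 17.1 and 17.7 FPKM in refed KR and WT, against 21.2 and 21.6 FPKM in fasted KR and WT (-0.28 ± 0.07, adjusted p = 0.00712). Arf1 (0.12 ± 0.05, adjusted p = 0.0792), Arf3 (0.08 ± 0.06) and Arf5 (0.07 ± 0.06) were not called. Arf1 made up 46.1% to 47.6% of the summed ARF level in the 4 libraries. Copb2 stood at 0.604 and 0.568 times the FPKM of Arf1 in refed KR and WT, and at 0.400 and 0.367 times in fasted KR and WT.

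**Figure D2:**
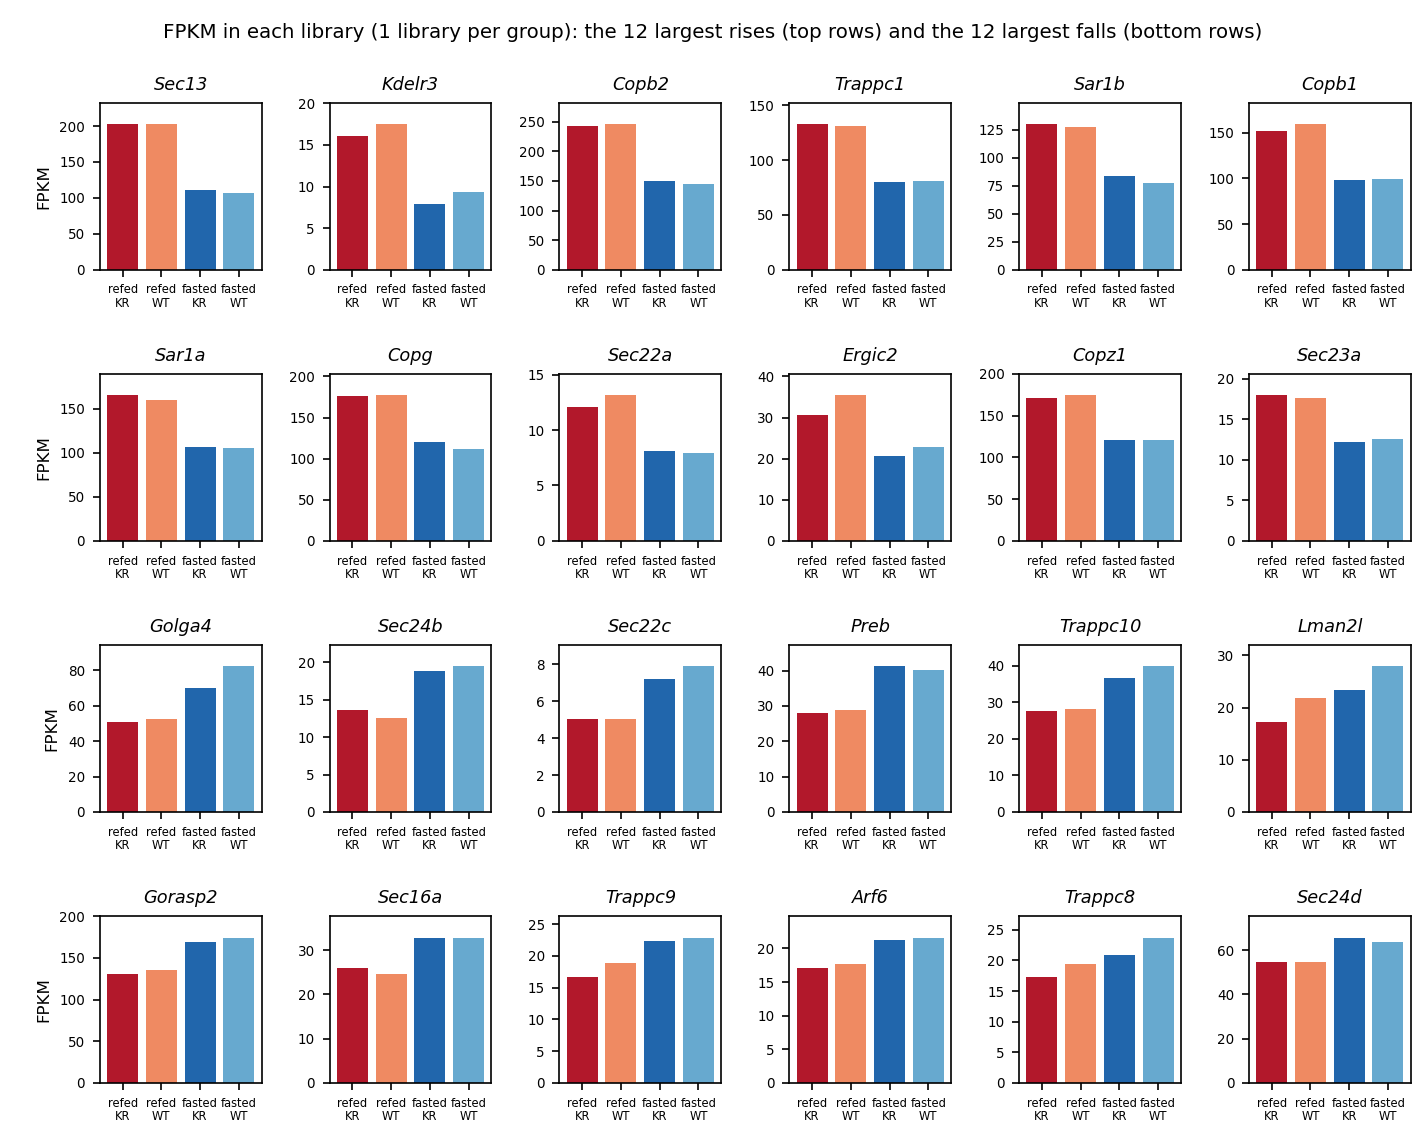
FPKM in each of the 4 libraries, from left refed KR, refed WT, fasted KR and fasted WT, for the 12 members with the largest rise (upper rows) and the 12 with the largest fall (lower rows); bars start at 0 and have no error because each is 1 library. In every panel both refed bars lie on the same side of both fasted bars. The choice of panels by called change favours this, and feeding groups did not overlap in 75.7% of all tested symbols.

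Of the 20 cargo and retrieval receptors, 10 rose, 3 fell and 7 were not called, with a median of 0.17. KDEL receptors return chaperones that escape the ER, and the 3 genes diverged. Kdelr3, at chr15:79346837-79358169 in mm9, had 16.1 and 17.4 FPKM in refed KR and WT, against 7.95 and 9.34 FPKM in fasted KR and WT (0.89 ± 0.07, adjusted p = 3.66e-05). The deposited bounds of its refed libraries, 13.9 to 18.3 and 15.6 to 19.3 FPKM, do not reach those of the fasted ones, 6.95 to 8.95 and 8.25 to 10.4 FPKM. The interval of Kdelr3 overlaps that of Ddx17 by 44 bases, and Ddx17 averaged 119.9 FPKM. Kdelr2 rose, with 156 and 157 FPKM in refed KR and WT, against 142 and 132 FPKM in fasted KR and WT (0.19 ± 0.06, adjusted p = 0.0187). Kdelr1 fell, with 122 and 133 FPKM in refed KR and WT, against 148 and 147 FPKM in fasted KR and WT (-0.21 ± 0.06, adjusted p = 0.0148). The summed level was 294.4 and 307.2 FPKM in refed KR and WT, against 297.5 and 287.8 FPKM in fasted KR and WT. Kdelr3 supplied 5.47% and 5.68% of it in refed KR and WT, and 2.67% and 3.25% in fasted KR and WT.

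The p24 family couples cargo to both coats and was taken here by the symbol Tmed alone. It had 6 of 10 members higher, none lower and 4 not called. Among all tested symbols 27.7% were higher and 29.2% lower. Tmed6, a family member, had 92.5 and 102 FPKM in refed KR and WT, against 65.8 and 77.3 FPKM in fasted KR and WT (0.44 ± 0.06, adjusted p = 0.000328). The other rises were 0.30 in Tmed9, 0.30 in Tmed1, 0.26 in Tmed4, 0.21 in Tmed3 and 0.21 in Tmed10. Tmed2, Tmed5, Tmed7 and Tmed8 lay between -0.09 and 0.17 and did not pass. Tmed1 shares 380 bases with the interval of Dnm2, at a mean of 54.3 FPKM.

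Ergic2, which cycles between the ER and the Golgi, had 30.6 and 35.4 FPKM in refed KR and WT, against 20.6 and 22.9 FPKM in fasted KR and WT (0.57 ± 0.07, adjusted p = 0.000148). Ergic1 fell by 0.17 ± 0.06 (adjusted p = 0.034) and Ergic3 was not called (0.13 ± 0.05, adjusted p = 0.0636). Lman2l, an ER lectin for high-mannose glycoproteins, fell, with 17.2 and 21.8 FPKM in refed KR and WT, against 23.4 and 27.9 FPKM in fasted KR and WT (-0.38 ± 0.07, adjusted p = 0.00148). The lectins Lman1, which exports coagulation factors in other cells, and Lman2 had changes of -0.04 ± 0.05 and -0.00 ± 0.06 and were not called. Surf4, a cargo receptor of the ER, rose by 0.17 ± 0.06 (adjusted p = 0.0341).

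In the Sec22 family, Sec22b rose by 0.27 ± 0.06 (adjusted p = 0.00374). Sec22a had 12.1 and 13.1 FPKM in refed KR and WT, against 8.13 and 7.88 FPKM in fasted KR and WT (0.60 ± 0.08, adjusted p = 0.000343). Sec22c went the other way, with 5.02 and 5.04 FPKM in refed KR and WT, against 7.22 and 7.88 FPKM in fasted KR and WT (-0.50 ± 0.09, adjusted p = 0.0014). For each of the 3 genes the feeding groups did not overlap.

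The golgins, stacking proteins and TRAPP subunits numbered 21, of which 8 rose (38.1%), 6 fell (28.6%) and 7 were not called, with a median of 0.01. Over all tested symbols 27.7% rose and 29.2% fell, so the share that fell was near that of all symbols. TRAPP complexes share a core that activates RAB1, to which further subunits are added. Among 8 genes of the core, Trappc1, Trappc2, Trappc4, Trappc5 and Trappc6a rose, and Trappc2l, Trappc3 and Trappc6b were not called. Trappc1 had 132 and 131 FPKM in refed KR and WT, against 79.7 and 80.8 FPKM in fasted KR and WT (0.71 ± 0.06, adjusted p = 2.73e-05). The other 4 rises were 0.39 in Trappc4, 0.28 in Trappc2, 0.25 in Trappc6a and 0.22 in Trappc5. All 3 of the subunits outside the core that the name rule matched fell. Trappc10, of the TRAPPII complex, had 27.5 and 28.1 FPKM in refed KR and WT, against 36.8 and 39.8 FPKM in fasted KR and WT (-0.45 ± 0.06, adjusted p = 0.000503). Trappc9, also of TRAPPII, had 16.6 and 18.9 FPKM in refed KR and WT, against 22.3 and 22.9 FPKM in fasted KR and WT (-0.33 ± 0.07, adjusted p = 0.00409), and its interval overlaps that of Peg13 by 4725 bases, at a mean of 37.5 FPKM. Trappc8, of TRAPPIII, had 17.3 and 19.5 FPKM in refed KR and WT, against 20.9 and 23.7 FPKM in fasted KR and WT (-0.27 ± 0.07, adjusted p = 0.00899). Trappc1 was at 4.81 and 4.65 times the FPKM of Trappc10 in refed KR and WT, and at 2.17 and 2.03 times in fasted KR and WT.

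Golgins are long coiled-coil tethers of the Golgi surface. Golga4, a tether of the trans-Golgi, had 51.0 and 52.5 FPKM in refed KR and WT, against 69.8 and 82.2 FPKM in fasted KR and WT (-0.54 ± 0.07, adjusted p = 0.000225). Golga2, known as GM130, fell by 0.20 ± 0.06 (adjusted p = 0.0201). In contrast, Golga1 rose by 0.39 ± 0.07 (adjusted p = 0.00142) and Golga3 by 0.35 ± 0.07 (adjusted p = 0.00212), and Golga7, which is no golgin by structure but a partner of a palmitoyl transferase, by 0.19 ± 0.07 (adjusted p = 0.0402). Golgb1, known as giantin, Golga5 and Golga7b were not called, at 0.01, 0.01 and -0.17. Gorasp2, which links Golgi stacks, had 131 and 136 FPKM in refed KR and WT, against 169 and 174 FPKM in fasted KR and WT (-0.36 ± 0.05, adjusted p = 0.000584). Its relative Gorasp1 was not called (-0.14 ± 0.07, adjusted p = 0.121) and shares 907 bases with the interval of Wdr48, at a mean of 17.6 FPKM.

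Transcript length moved with the feeding difference. The length implied by fragments and FPKM had a Spearman rho of -0.29 with the fitted change over the 11953 tested symbols and of -0.43 over the 72 members, which share the 4 libraries. Members that rose had a median implied length of 1.78 kb, those that fell 4.31 kb and those not called 2.98 kb, against 1.81, 3.13 and 2.64 kb over all tested symbols. A smooth length trend was then removed from each library, an alternative chosen after seeing the data. With it removed, 34 members rose and 13 fell, against 27.3% and 26.3% of all tested symbols. Of the 52 member calls 42 were shared, near the share over all tested symbols, 5553 of 6796 calls. Among COPI subunits the change was then larger for Copb2 (0.78), Copb1 (0.72), Copg (0.69), Copa (0.54) and Copg2 (0.40) and smaller for Copz1 (0.45) and Cope (0.22), all called, while Copz2 was not (-0.02, adjusted p = 0.814). Changes that shrank by over 1.5 times and were still called were those of Cope, Sec16a (-0.19), Sec24d (-0.15), Tmed6 (0.23), Trappc1 (0.45) and Trappc4 (0.25). Sec13 kept a change of 0.77, Kdelr3 of 0.79, Preb of -0.36 and Sec24b of -0.40, and all were called.

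Among TRAPP subunits without the length trend, Trappc1, Trappc4 and Trappc5 (0.20) still rose and Trappc10 (-0.32) and Trappc9 (-0.24) still fell. Trappc2 (0.03), Trappc6a (0.01) and Trappc8 (-0.13) were no longer called, and Trappc2l turned lower (-0.18, adjusted p = 0.0144). Among the other calls lost were those of Arf4, Sec24c, Tmed3, Golga2, Golga7 and Ergic1, while Arf3 (0.16), Tmed5 (0.23), Tmed8 (0.33) and Golgb1 (0.19) became higher. Ratios between genes of unlike implied length are exposed to the same trend. Examples are Trappc1 (0.55 kb) over Trappc10 (4.97 kb) and Sec13 (1.12 kb) over Sec31a (4.13 kb). Such ratios were not computed without the length trend. Why length moved with feeding was not tested.

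**Figure D3:**
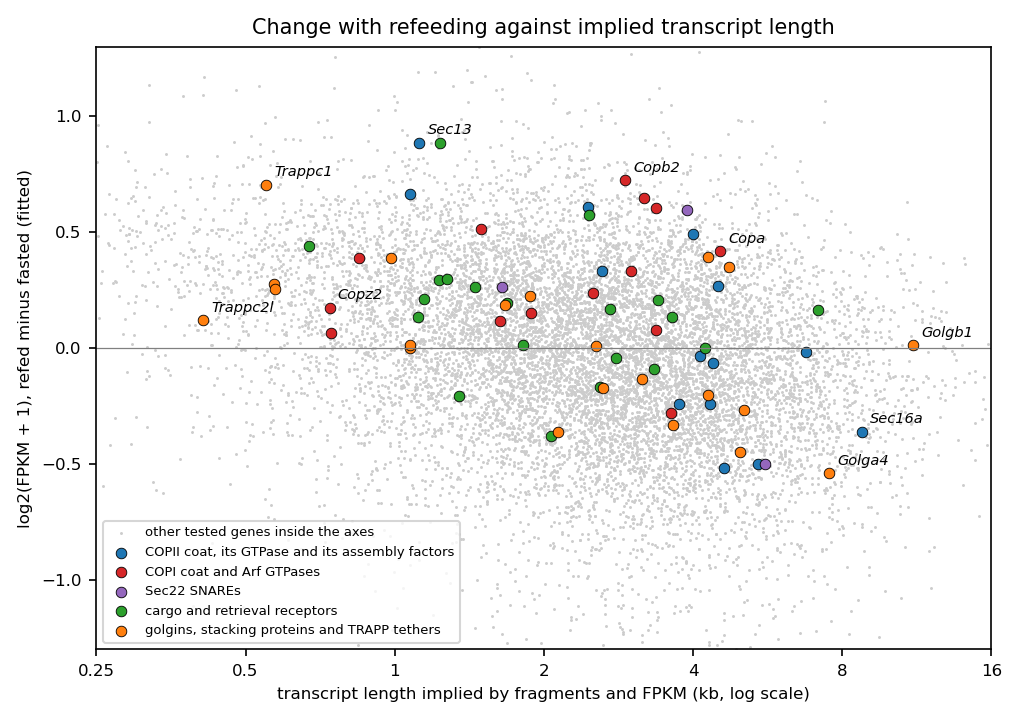
Fitted difference in log2(FPKM + 1) between refed and fasted islets against the transcript length implied by fragments and FPKM (kb, log scale), with members coloured by role and other tested genes in grey. Long members such as Golga4 and Sec16a lie below 0 and short ones such as Trappc1 above it, whereas Copb2 and Copa rose at 2.91 and 4.54 kb.

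Cell type markers also moved with feeding. Of the 9 measured beta-cell markers 6 rose with refeeding and none fell, including G6pc2, an islet glucose-6-phosphatase, by 1.19 ± 0.06. Of the 6 tested stellate markers 5 fell, and of the 6 tested endothelial markers 4 fell and 1 rose. Of the 4 tested acinar markers 3 rose and 1 fell, and of the 6 macrophage markers 3 fell. Of the 5 tested duct markers 3 rose, of the 4 delta and PP markers 2 rose, and of the 5 alpha markers 1 rose and 2 fell, while none of the 3 lymphocyte markers was called by limma (1 at an unadjusted p under 0.05). These counts are to be read against the 27.7% of all tested symbols that rose and the 29.2% that fell. The part of these markers in the members' changes was not tested.

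Genes of the same route that the name rule does not reach are given by list, to be read against the 27.7% of all tested symbols that rose and the 29.2% that fell. Of 18 tested SNAREs and fusion factors 7 rose (38.9%) and 2 fell (11.1%). The largest rises were those of Bet1l, a Golgi SNARE, with 52.0 and 51.1 FPKM in refed KR and WT, against 32.0 and 32.0 FPKM in fasted KR and WT (0.67 ± 0.06, adjusted p = 5.13e-05), Scfd1, the SM protein of this step (0.59), and Ykt6 (0.42). Napb (-0.34) and Stx6 (-0.20) fell. Of 17 ARF regulators and effectors 5 rose (29.4%) and 8 fell (47.1%). Arfgap2, a GTPase-activating protein of COPI (0.64), Arl1 (0.43) and Arfgap1 (0.29) led the rises, and Gga1 (-0.50), Gga3 (-0.43), both clathrin adaptors of the trans-Golgi, and Asap1 (-0.42) the falls.

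Of 10 tested RAB GTPases 2 rose, Rab2a (0.26) and Rab33b (0.21), and 3 fell, Rab6b (-0.69), Rab43 (-0.37) and Rab6a (-0.35), shares near those of all symbols. Rab1 and Rab1b, the RABs that TRAPP activates, were not called (0.09 and 0.12). A list of 22 other tethers, COG subunits and further Golgi proteins had 7 higher and 7 lower (31.8% each), also near the shares of all symbols. Its largest rises were in Gcc2 (0.58), Blzf1 (0.45) and Cog5 (0.41). Its largest falls were in genes that are neither tethers nor COG subunits: Usp6nl (-0.80) and Tbc1d20 (-0.64), both GTPase-activating proteins of RABs, and Bicd2 (-0.52), a dynein adaptor. Of 25 ER exit helpers 13 rose (52.0%), led by Yipf1 (0.59), Bcap31 (0.54) and Yipf6 (0.51), and 4 fell, of which Vapb (-0.71), Vapa (-0.39) and Yif1b (-0.36) had the largest changes.

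Of the regulators and ER stress genes looked up singly, Atf6, Atf4, Creb3l2 and Hspa5 fell and Xbp1 was not called. Xbp1 had 282 and 272 FPKM in refed KR and WT, against 267 and 249.1 FPKM in fasted KR and WT (0.10, adjusted p = 0.125). These values are total transcript and do not show its spliced form. Atf6 fell, with 33.0 and 31.8 FPKM in refed KR and WT, against 62.1 and 71.8 FPKM in fasted KR and WT (-1.02 ± 0.07, adjusted p = 1.92e-05). Atf4 fell by 1.51. Creb3l2, a regulator of COPII genes, fell by 0.34. Hspa5, the ER chaperone BiP, fell by 0.20.

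Seen pair by pair, the refeeding ratio reached 1.5-fold on the log2(FPKM + 1) scale in 7 members of KR islets, all higher, where 4.67% of all tested symbols were higher and 8.23% lower by that much. These were Sec13, Kdelr3, Copb2, Trappc1, Sar1a, Copb1 and Sar1b. In WT islets 10 members were higher, where Copg, Sec22a and Ergic2 joined those 7, and 2 were lower, Golga4 and Sec24b, against 6.89% and 9.22% of all tested symbols. No member reached 2-fold on that scale in either pair, where the pseudocount lowers the ratio of low genes. As a plain ratio of FPKM, Kdelr3 was 2.03-fold higher in KR and 1.87-fold higher in WT. The deposited bounds of the refed and fasted library did not overlap for 53 members in KR and 57 in WT, against 52.0% and 61.0% of all tested symbols. A ratio between 2 single libraries has no replicate check.

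The ratios of the KR and WT pairs had the same sign in 63 of the 72 members. The share over all tested symbols was not counted. Feeding groups that do not overlap make the signs agree, and this held in 86.1% of members and 75.7% of all tested symbols. The difference of the ratios, KR minus WT, had a median size of 0.07 on the log2 scale, against 0.11 over all tested symbols. The tested symbols reach down to a mean of 1 FPKM, while the members had medians of 57.4 to 66.2 FPKM in the 4 libraries. Genes of like level were not compared. The difference was below 0 in 48 members, and in 56.1% of all tested symbols. The largest gaps were in Tmed5, whose ratio was -0.01 in KR and 0.28 in WT, Tmed8, at 0.03 in KR and 0.31 in WT, and Trappc4, at 0.28 in KR and 0.49 in WT. With 1 library per group these differences leave no residual degree of freedom and were not tested.

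**Figure D4:**
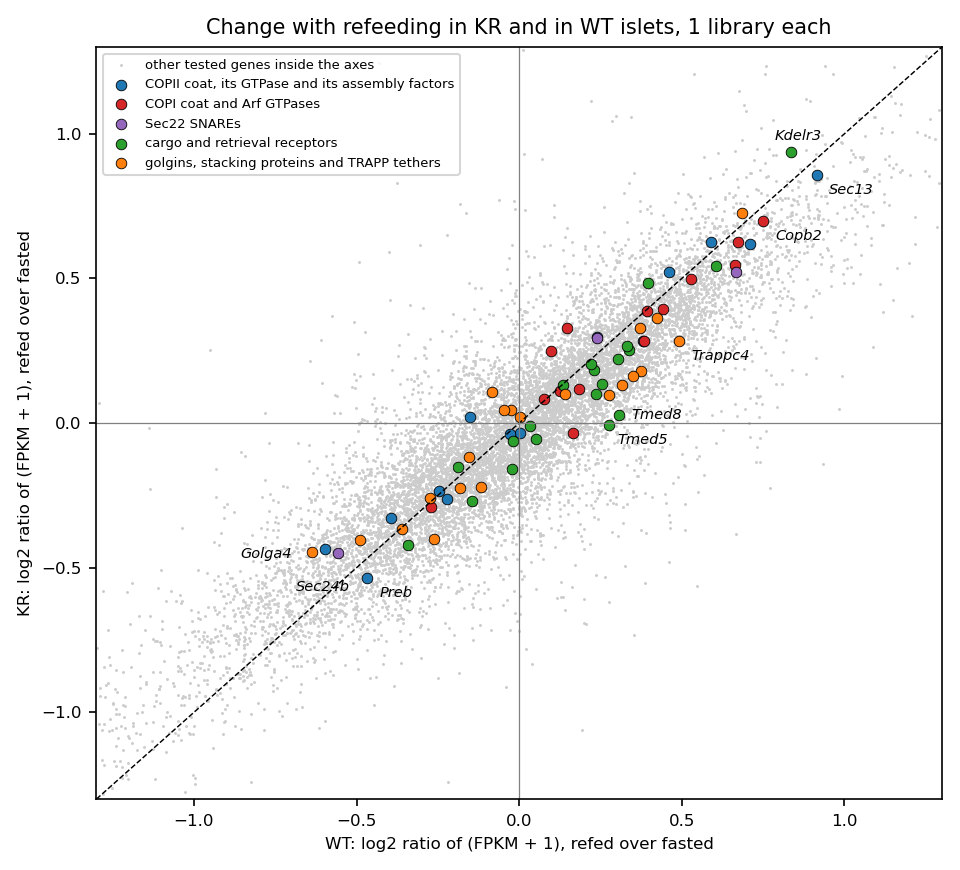
Log2 ratio of (FPKM + 1), refed over fasted, in KR islets (vertical) and in WT islets (horizontal), 1 library each; coloured points are members by role, grey points other tested genes, and the dashed line marks equal ratios. Members lie along the line from Golga4 and Preb to Sec13 and Kdelr3, with Tmed5 and Tmed8 below it.

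Comparing KR with WT islets asks which transcripts differ with the mutant FoxO1. No member was called in the limma test, against 1.26% of all tested symbols (0.602% higher and 0.661% lower), and 6 of the 72 (8.33%) had an unadjusted p under 0.05, against 16.4% of all tested symbols. The median difference, KR minus WT, was -0.03 for the members and -0.04 for all tested symbols. Rescaling the libraries by the median of ratios moved the members' median to 0.01, turning its sign, and the share of higher genes among all called ones to 62.8%, against 47.7% as deposited. Genotype groups did not overlap in 6 members (8.33%), against 16.7% of all tested symbols. In neither feeding state did any member differ by 1.5-fold between KR and WT, where in refed islets 0.736% of all tested symbols were higher and 0.686% lower by that much, and in fasted islets 0.627% and 0.485%. The bounds did not overlap for 15 members in refed and 18 in fasted islets, against 15.3% and 22.9% of all tested symbols.

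Lman2l had the lowest difference. It was at 17.2 FPKM in refed KR, against 21.8 FPKM in refed WT, and at 23.4 FPKM in fasted KR, against 27.9 FPKM in fasted WT. KR was the lower library in both states and the bounds did not overlap in either, yet the fitted difference of -0.28 ± 0.07 did not pass (adjusted p = 0.0947). With limma-voom on implied fragments it did (-0.26 ± 0.08, adjusted p = 0.0228), as the sole member called there, among 6.27% of all tested symbols. The next lowest were Tmed1 (-0.22), Golga7b (-0.20), Tmed5 (-0.19) and Tmed6 (-0.18), none of which passed. The highest were Sec23ip (0.10), Copz2 (0.08), Arf2 (0.08), Sar1b (0.07) and Trappc4 (0.07), none of which passed.

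The coats themselves were close between genotypes. Fitted differences ran from -0.05 to 0.10 for COPII genes and from -0.09 to 0.08 for COPI and ARF genes, and none passed. Sec13 differed by 0.03 ± 0.05 and Copb2 by 0.01 ± 0.05. In the same libraries 6 of the 9 measured beta-cell markers were higher in KR, and Hspa5, with 1450.5 and 1809 FPKM in refed KR and WT and 1661 and 2085 FPKM in fasted KR and WT, was lower in KR (-0.32, adjusted p = 0.02). Of the 3 tested lymphocyte markers 2 were higher in KR, and the summed level of the list was 16.6 and 10.8 FPKM in refed KR and WT, and 23.8 and 10.8 FPKM in fasted KR and WT. Of the 6 macrophage markers 2 were higher in KR, and the part of any of these markers in the members' differences was not tested. In limma no gene of the 5 further lists of this route was called between KR and WT, while 1 SNARE, 1 RAB and 5 ER exit helpers had an unadjusted p under 0.05. A p that misses the threshold does not show that KR and WT express a gene alike.

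**Figure D5:**
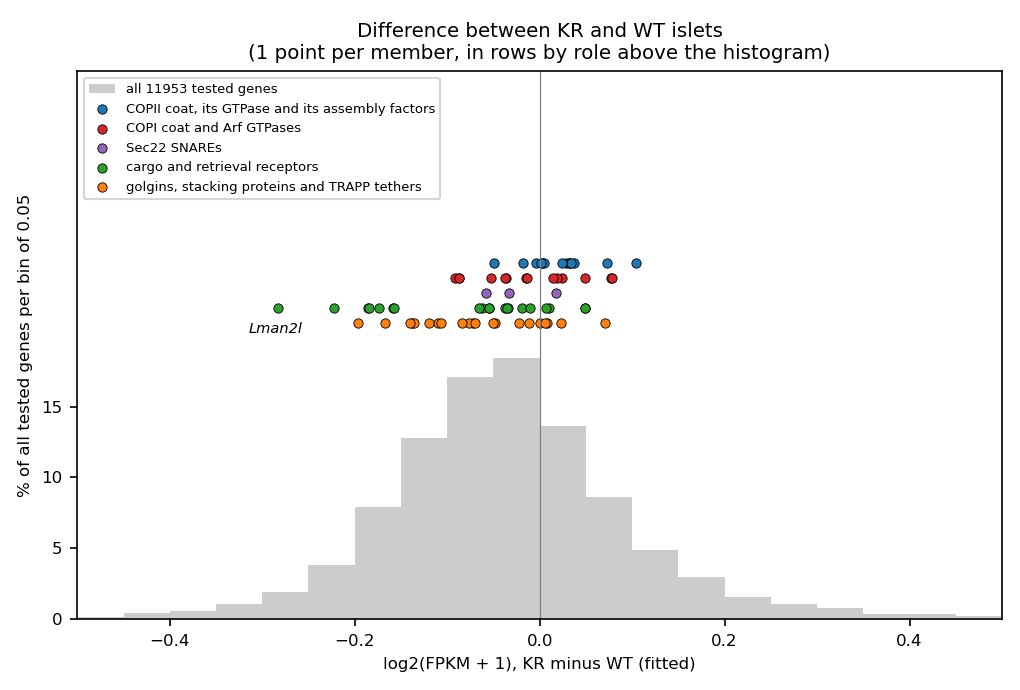
Fitted difference in log2(FPKM + 1), KR minus WT, for the members as points in rows by role, above a histogram of all 11953 tested genes (% per bin). The members lie between -0.28 for Lman2l and 0.10 for Sec23ip, and no point passed the test.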

How the data were processed

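The authors deposited FPKM values, each with its bounds and status, in 23699 rows per library, per the file headers. The submitters' processing notes name bcl2fastq 1.8.4, TopHat2 2.0.4 and the build mm9. Which program computed FPKM, from which annotation and with or without strand, is not given in the sources used here. Hence reads of overlapping genes cannot be told apart: 12 of the 72 members overlap another row. Per the labels' protocols, libraries were made from poly-A RNA with an Illumina TruSeq kit.

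Rows of 1 symbol were summed to 23235 symbols, of which 189 lacked a valid status in some library, and a mean of at least 1 FPKM was required. Depth was taken from the bounds, with implied fragments equal to (FPKM / SE) squared, so precision reflects counting alone. Tests used limma 3.58.1 on log2(FPKM + 1), run in R 4.3.3 with a trended prior and feeding state and genotype as terms. All 4 libraries were used, with Benjamini-Hochberg adjustment over 11953 symbols. A run on simulated data drew normal errors around additive terms, so it cannot check for spread between pools or a departure from additivity. The pseudocount of 1 makes fold changes of low genes too small, and the standard errors are moderated over genes. Named are the 12 largest changes in each direction with feeding, the 5 highest and 5 lowest genotype differences, the 3 highest levels per role, whole families, and the 3 largest called changes in each direction of further lists. Members, lists and tests were chosen with earlier results of these data known. Alternatives covered the pseudocount, filter, scaling, variance model, model terms, libraries left out, fold and bounds. A length correction was added after seeing the data. Whether the feeding response differs between genotypes could not be tested with 1 library per group.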

Additional observations from a re-analysis of the deposited data

Results flagged for a closer look

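Golgb1 (giantin) and Tmed8 (grouped with the p24 family by its symbol) had ratios that pointed in opposite directions in the groups compared. The deposited bounds did not overlap in either pair. The log2 ratio of Golgb1, refed over fasted, was 0.11 in KR and -0.083 in WT islets. Its log2 ratio of KR over WT was 0.082 in refed and -0.11 in fasted islets, which is the same contrast seen from the other side. For Tmed8 the log2 ratio of KR over WT was -0.15 in refed and 0.13 in fasted islets. Each group is 1 library, so the difference was not tested.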

How the results depend on the processing

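The counts of members called with refeeding, 52 in all, 36 higher and 16 lower, were within 1.5 times of these under a pseudocount of 0.1, a mean of at least 5 FPKM, rescaling by the median of ratios, limma without trend, a robust prior, limma-voom, a model of feeding state alone and the removal of the length trend, with totals between 37 and 55. With limma without trend 56.9% of members were called, against 53.6% of all tested symbols, and with feeding state alone 51.4% against 44.1%. Without the length trend the shares were 65.3% and 53.7%, and at a mean of at least 5 FPKM 73.2% and 64.7%. They were 76.4% and 61.4% with limma-voom, and 76.4% and 57.0% after rescaling. With no filter on low values the counts were 0, 0 and 0, and no symbol was called by limma at all. An unadjusted p under 0.05 was then found for 46 members (63.9%) and 26.9% of all symbols. Leaving out 1 library at a time, in a model of feeding state alone, gave totals of 21 to 31, with 16 to 24 higher and 5 to 9 lower. Outside the fit with no filter and these left-out libraries, 34 of the 52 calls were made in each setting run. The matching share over all tested symbols was not counted. Among named members the change of Copz2 reversed, to -0.020 with the length trend removed. The genotype count of 0 became 1 (1 lower, Lman2l) with limma-voom and was 0 under the other alternatives. Of members 1.5-fold apart, 7 with feeding in KR, 12 with feeding in WT, 0 between genotypes in refed and 0 in fasted islets, the counts at 2-fold were 0, 0, 0 and 0, and those by deposited bounds that do not overlap were 53, 57, 15 and 18. No paired analysis was possible because each group holds 1 library, so no replicate number can be blocked beyond the genotype term, which already sets refed against fasted islets within each genotype. Members had at least 79 implied fragments, but relative depth was 0.418 and 0.683 in refed KR and WT, against 1.01 in fasted KR, all relative to fasted WT. Depth and feeding cannot be told apart, and no comparison has a replicate pool.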
